A study of Mus musculus with 16 samples.

Results

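The genes described here are 9 members of the interferon signalling chain in mouse macrophages: the interferon-gamma receptor genes Ifngr1 and Ifngr2, the type I interferon receptor genes Ifnar1 and Ifnar2, the kinase genes Jak1, Jak2 and Tyk2, and the STAT genes Stat2 and Stat3. They were chosen by name, through the gene symbol of the array's annotation, and are 9 of the 19938 genes that could be named. Each was read by 1 array feature that carries a single symbol. Macrophages had been differentiated from marrow with L-cell conditioned medium, and the mice of all 6 groups carried an HA-tagged histone H3.3 knock-in, so cells without the tag were not compared. Cells were naive or pretreated, a name the sample titles link to earlier interferon, and were sampled at 0, 3 and 6 h of treatment with interferon-gamma, with 4 arrays for each 0 h group and 2 for each 3 h and 6 h group. For the age and strain of the mice and for the pretreatment's dose, duration and recovery time, values were not given in the sources used. The arrays formed 2 sets of 8. Array set 1 held 0 h arrays (replicates 1 and 2) and the 6 h arrays, and array set 2 held 0 h arrays (replicates 3 and 4) and the 3 h arrays.

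Interferon-gamma binds a receptor built from IFNGR1, which holds the ligand, and IFNGR2, and these carry the kinases JAK1 and JAK2. Type I interferons bind IFNAR1 and IFNAR2, which carry TYK2 and JAK1. The activated kinases phosphorylate STAT proteins, which dimerise, enter the nucleus and bind gamma-activated sites (GAS), or, as a complex that holds STAT2 and IRF9, interferon-stimulated response elements (ISRE). In macrophages this chain turns on antigen presentation and the killing of intracellular microbes, and it is shut off by induced inhibitors such as the SOCS proteins. STAT3 is best known as the transcription factor of the interleukin-6 and interleukin-10 receptors.

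All values are the authors' log2 intensities, on which a difference of 1 is a doubling of signal. Changes were taken within an array set, because the column medians of the sets did not overlap (7.151 to 7.226 in set 1 and 6.886 to 6.997 in set 2). Every change sets 2 arrays against 2 others of that set, and the 0 h comparison of pretreated with naive cells takes the mean of both sets, 4 arrays against 4. The value after ± is the standard error from 1 limma fit to all 16 arrays, adjusted p-values are limma's with Benjamini-Hochberg adjustment over 19938 genes, and a gene passed at an adjusted p under 0.05. The 0 h arrays are shared between comparisons. With 2 arrays against 2, a lack of overlap is a description, and the share of all genes that separate so was not computed. No untreated cells were sampled at 3 h or 6 h, so interferon and time in culture cannot be told apart, and 3 h and 6 h cannot be told apart from the array set. The labels do not say whether replicates came from separate cultures or animals, so the p-values measure the spread between these arrays, which may be technical. All 8 macrophage markers had a mean of at least 11.4, and of 20 measured markers of T, B and NK cells, neutrophils, dendritic cells and fibroblasts 12 had a mean under 6.5 and the highest, Col1a1, a mean of 7.87. In such bulk RNA, fewer cells of a type and less RNA per cell cannot be told apart.

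The promoters of 3 members are shown because Stat2 and Stat3 are the STAT genes among the 9 members, 1 with and 1 without a match to a searched motif, and Ifnar2 held a match while its RNA stayed close to its 0 h level. Sequences are RefSeq's for GRCm38.p6, read toward the gene on its own strand and ending at the base before the gene's outermost annotated start. Stat2 is at chr10:128270248-128270497 (plus strand), Ifnar2 at chr16:91372533-91372782 (plus strand) and Stat3 at chr11:100939595-100939790 (minus strand). Capitals mark a match to the ISRE motif in Stat2 and to the GAS motif in Ifnar2.
Stat2 promoter: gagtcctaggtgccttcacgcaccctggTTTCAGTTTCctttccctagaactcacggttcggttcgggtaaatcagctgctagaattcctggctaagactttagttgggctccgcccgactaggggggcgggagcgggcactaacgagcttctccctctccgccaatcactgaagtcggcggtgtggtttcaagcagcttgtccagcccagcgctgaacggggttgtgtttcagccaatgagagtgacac
Ifnar2 promoter: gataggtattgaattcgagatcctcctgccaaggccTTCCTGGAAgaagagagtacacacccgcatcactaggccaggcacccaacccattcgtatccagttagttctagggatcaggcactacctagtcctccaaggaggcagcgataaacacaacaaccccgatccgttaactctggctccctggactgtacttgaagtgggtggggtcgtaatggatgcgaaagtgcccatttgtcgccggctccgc
Stat3 promoter: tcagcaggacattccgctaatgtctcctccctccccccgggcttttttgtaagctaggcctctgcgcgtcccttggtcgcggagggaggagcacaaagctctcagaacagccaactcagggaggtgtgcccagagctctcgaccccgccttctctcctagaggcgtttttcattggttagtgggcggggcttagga
The searches used TTCNNNGAA for GAS, which reads alike on both strands, and GAAANNGAAA or its complement TTTCNNTTTC for ISRE, over the 250 bases before each listed start. All 9 members had a promoter entry. Stat2 held the ISRE match TTTCAGTTTC from 222 to 213 bases before its start, and Ifnar2 held the GAS match TTCCTGGAA from 214 to 206 bases before its start. The other 7 members had no match to either motif in this window. Of all 32851 promoters, 7.02% held a GAS match and 2.98% an ISRE match, so 1 member in 9 with each is a description and not a sign of a site in use.

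The first question is whether a first exposure to interferon-gamma changed the RNA of its own receptor and signalling chain. In naive cells at 3 h, 3 of the 9 members were higher (Jak2, Stat2 and Stat3) and 2 were lower (Ifngr1 and Ifngr2), whereas 3.37% of all genes passed as higher and 2.09% as lower. At an unadjusted p under 0.05 it was 6 of 9, beside 3054 of all 19938 genes. At 6 h the same 3 members were higher and none passed as lower, beside 7.48% of all genes higher and 10.8% lower. There 5 of 9 had an unadjusted p under 0.05, beside 5436 of all 19938 genes. The median log2 change of the 9 members was 0.07 at 3 h and 0.03 at 6 h, close to the medians over all genes of 0.00 and -0.01, with members on both sides of 0. Their median absolute log2 change was 0.58 at 3 h and 0.37 at 6 h, against 0.13 and 0.15 over all genes.

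**Figure D1:**
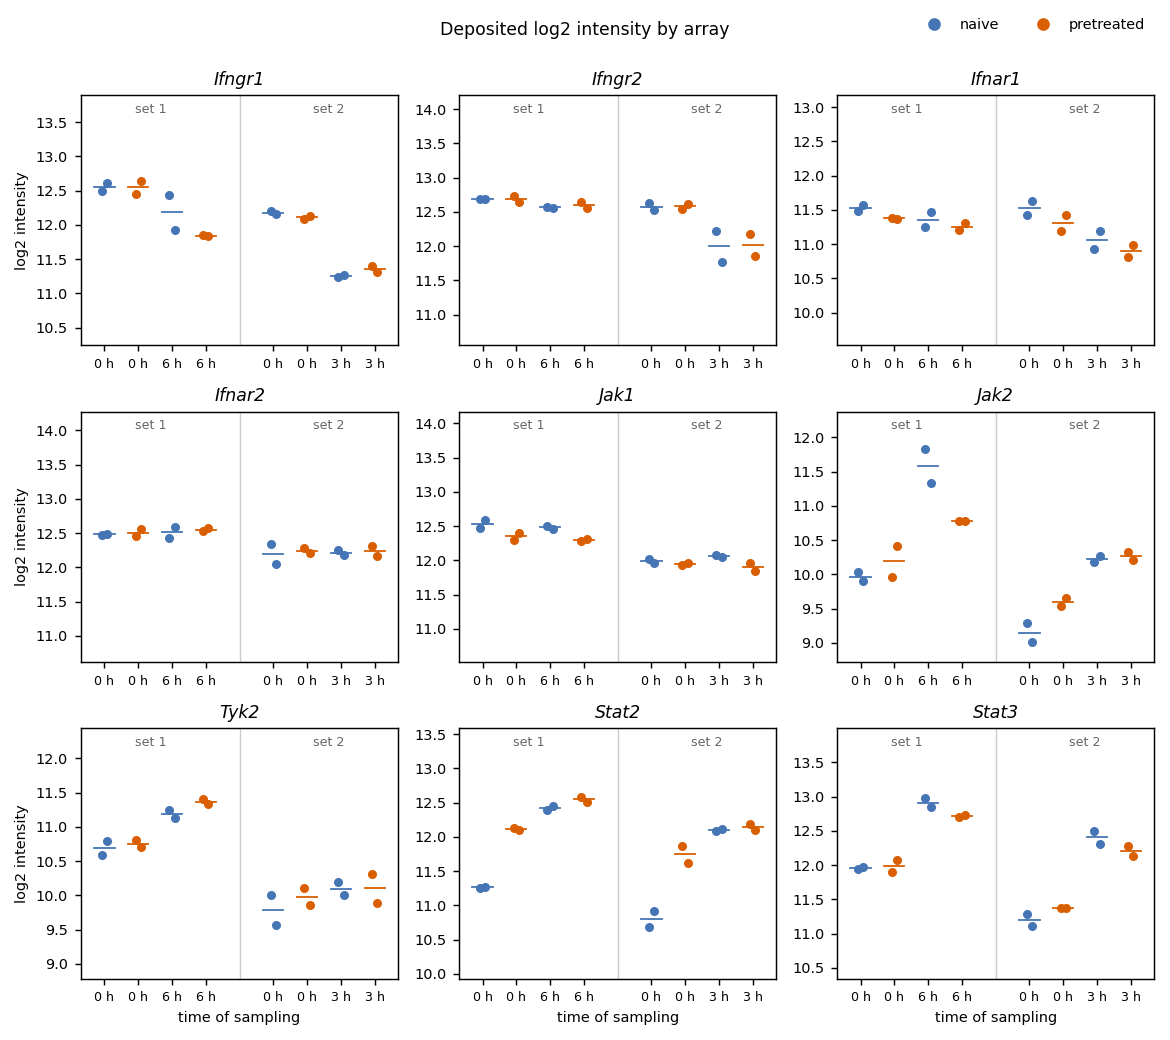
Log2 intensity (y axis, each panel spanning the same range) of each of the 9 members on every array, with points for arrays, bars for group means, and groups on the x axis split by array set. Stat2, Stat3 and Jak2 sit higher after treatment in both sets, Ifngr1 sits lower at 3 h, and Ifnar2 and Jak1 stay near 1 level within a set.

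Ifngr1, the ligand-binding chain of the interferon-gamma receptor, fell most among the receptor genes. In array set 2 naive cells had log2 intensities of 12.20 and 12.16 at 0 h and of 11.24 and 11.26 at 3 h, and pretreated cells 12.09 and 12.13 at 0 h and 11.40 and 11.32 at 3 h. The 3 h and 0 h arrays did not overlap in either kind of cell. The log2 change was -0.93 ± 0.14 in naive cells, 0.526 times the 0 h level (adjusted p = 0.00164), and -0.75 ± 0.14 in pretreated cells, 0.594 times that level (adjusted p = 0.0125). The call in pretreated cells was lost when any 1 of its 4 arrays was left out, with adjusted p up to 0.104.

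In set 1 Ifngr1 was at 12.49 and 12.61 in naive cells at 0 h and at 12.44 and 11.93 at 6 h. Pretreated cells had 12.45 and 12.65 at 0 h and 11.85 and 11.83 at 6 h. The 2 naive 6 h arrays lay far apart, with replicate 1 near the 0 h arrays and replicate 2 close to the pretreated 6 h arrays. The fall in pretreated cells passed (-0.70 ± 0.14, adjusted p = 0.0114), and it was lost without pretreated 0 h replicate 2 or without either pretreated 6 h array (adjusted p up to 0.0931). The naive 6 h difference did not pass (-0.37 ± 0.14, 95% interval -0.68 to -0.06, adjusted p = 0.106), but it did without naive 6 h replicate 1 (-0.62, adjusted p = 0.00916). The difference between the 6 h and 3 h changes in naive cells was 0.56 ± 0.20 and did not pass (adjusted p = 0.221), although it did without naive 6 h replicate 2 (0.82, adjusted p = 0.0312).

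Ifngr2, the second chain of that receptor, fell in naive cells at 3 h only narrowly past the threshold. Its naive values were 12.62 and 12.52 at 0 h and 12.22 and 11.77 at 3 h, with no overlap but a wide gap between the 3 h arrays. The log2 change was -0.58 ± 0.14 (adjusted p = 0.0351), and it was lost without naive 3 h replicate 2 (adjusted p = 0.359) and without naive 0 h replicate 3 or 4. Pretreated cells had 12.54 and 12.62 at 0 h and 12.17 and 11.85 at 3 h, again without overlap, a difference of -0.57 ± 0.14 that did not pass (adjusted p = 0.0605). It passed under 5 alternatives, with adjusted p from 0.0197 to 0.0416. At 6 h the arrays of set 1 spanned 12.55 to 12.73, and the differences from 0 h were -0.12 in naive cells (95% interval -0.44 to 0.19) and -0.08 in pretreated cells (-0.40 to 0.23).

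The 2 genes of the type I interferon receptor did not pass in the fit with separate means for each set. Ifnar1, which carries TYK2, was at 11.42 and 11.63 in naive cells at 0 h and 10.94 and 11.20 at 3 h, and at 11.19 and 11.43 and then 10.82 and 10.99 in pretreated cells. Both 3 h groups lay below the 0 h arrays of the same kind of cell. The differences were -0.46 ± 0.14 (adjusted p = 0.078) in naive and -0.41 ± 0.14 (adjusted p = 0.165) in pretreated cells, and at 6 h they were -0.17 and -0.12. The naive 3 h difference passed with array set as an additive term (-0.44, adjusted p = 0.0416). In set 1 all 8 Ifnar1 values lay between 11.21 and 11.56.

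Ifnar2, whose chain binds type I interferon most tightly, varied least of all members. It spanned 12.43 to 12.59 over the 8 arrays of set 1 and 12.05 to 12.34 over those of set 2, and each treated group overlapped the 0 h arrays of the same kind of cell. Its 4 changes from 0 h lay between -0.01 and 0.04, with 95% intervals that together ran from -0.26 to 0.30. In the RefSeq table for GRCm38.p6 Ifnar2, Ifnar1 and Ifngr2 lie in this order on chromosome 16, with Il10rb, a receptor chain of interleukin-10 and the lambda interferons, between Ifnar2 and Ifnar1. Il10rb fell in naive cells at 3 h (-0.61 ± 0.16, adjusted p = 0.0475, up to 0.356 with an array left out) and at 6 h (-0.77 ± 0.16, adjusted p = 0.00504, and 0.052 without naive 0 h replicate 1).

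**Figure D2:**
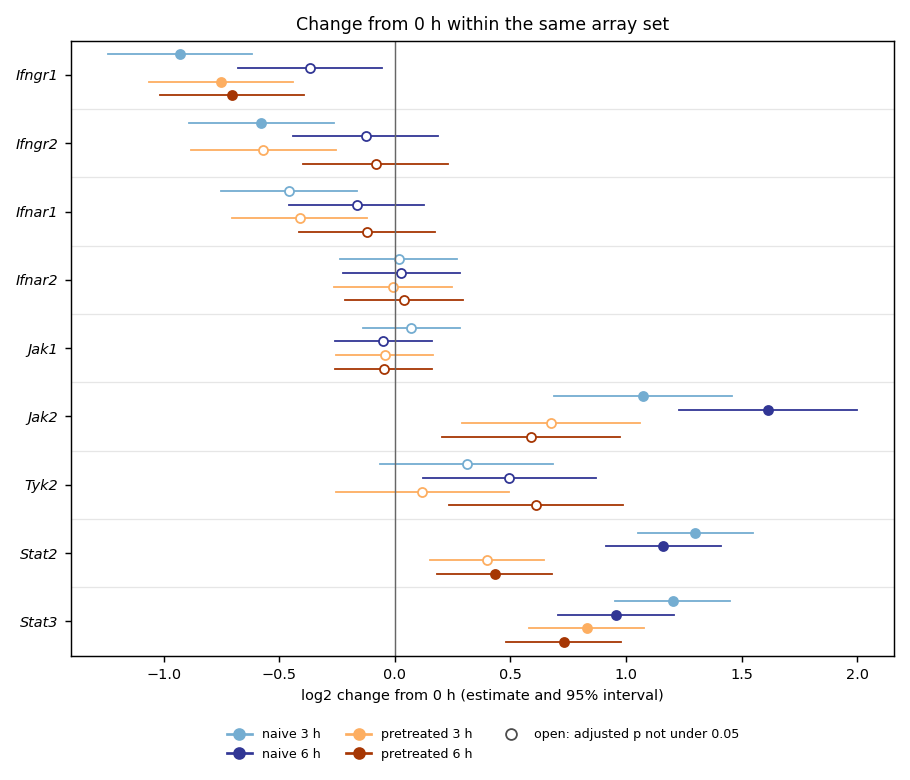
Log2 change from 0 h (x axis, point with 95% interval) of each member in naive and pretreated cells at 3 h and 6 h, with open points for an adjusted p not under 0.05. The Stat2 and Jak2 estimates lie between 1.07 and 1.61 in naive and between 0.40 and 0.68 in pretreated cells. The difference between the naive and pretreated changes did not pass for either gene. The Ifngr1 points all lie below 0.

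Among the kinases Jak2 passed, and Tyk2 passed at 6 h under other settings of the fit but not in this one. Jak2, the kinase carried by IFNGR2, was at 10.04 and 9.90 in naive cells of set 1 at 0 h and at 11.83 and 11.33 at 6 h, and in set 2 at 9.29 and 9.01 at 0 h and 10.18 and 10.27 at 3 h. No naive treated array overlapped a 0 h array of its set. The rise was 2.11-fold at 3 h (log2 change 1.07 ± 0.18, adjusted p = 0.00263) and 3.06-fold at 6 h (1.61 ± 0.18, adjusted p = 4.99e-05). Both calls held when any 1 array was left out, and the difference between them, 0.54 ± 0.25, did not pass (adjusted p = 0.381).

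Pretreated cells had Jak2 at 9.96 and 10.42 at 0 h and 10.78 and 10.78 at 6 h in set 1, and at 9.54 and 9.65 at 0 h and 10.33 and 10.21 at 3 h in set 2. The treated arrays were again all above the 0 h arrays. The differences did not pass, at 0.68 ± 0.18 at 3 h (adjusted p = 0.0681) and 0.59 ± 0.18 at 6 h (adjusted p = 0.0829). Without pretreated 0 h replicate 2, which was the highest 0 h array, the 6 h difference was 0.82.

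Jak1, the kinase shared by both receptors, stayed within 12.29 to 12.59 in set 1 and 11.85 to 12.08 in set 2. Its 4 changes from 0 h ranged from -0.05 to 0.07, with 95% intervals together spanning -0.26 to 0.28. In each set all pretreated Jak1 arrays lay below all naive ones, in set 2 barely (11.967 against 11.969). The pretreated minus naive differences were -0.11, -0.16 and -0.18 at 0, 3 and 6 h, and none passed. Tyk2, the kinase of the type I receptor, was at 10.59 and 10.80 in naive cells at 0 h and 11.25 and 11.14 at 6 h, and at 10.81 and 10.70 and then 11.41 and 11.33 in pretreated cells. All 4 of the 6 h arrays lay above all 4 of the 0 h arrays of set 1. The differences did not pass, at 0.50 ± 0.17 (95% interval 0.12 to 0.87, adjusted p = 0.0671) in naive and 0.61 ± 0.17 (0.24 to 0.99, adjusted p = 0.0623) in pretreated cells. With set 1 fitted alone they did (adjusted p = 0.0236 and 0.0269), as they did with array set as an additive term (0.0248 and 0.0395). At 3 h the Tyk2 arrays of set 2 overlapped, from 9.57 to 10.32, with differences of 0.31 and 0.12.

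Stat2, the STAT of the complex that binds ISRE and the member whose promoter held the ISRE match, rose in naive cells from 10.68 and 10.92 at 0 h to 12.08 and 12.12 at 3 h in set 2. In set 1 it rose from 11.26 and 11.26 to 12.39 and 12.45 at 6 h. No 0 h array came within the range of the treated arrays. The rise was 2.46-fold at 3 h (log2 change 1.30 ± 0.11, adjusted p = 1.62e-05) and 2.24-fold at 6 h (1.16 ± 0.11, adjusted p = 2.12e-05), and both calls held with any 1 array left out.

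In pretreated cells Stat2 was at 11.87 and 11.62 at 0 h and 12.18 and 12.10 at 3 h in set 2, and at 12.13 and 12.09 at 0 h and 12.58 and 12.51 at 6 h in set 1. The arrays of each pair of groups did not overlap, and the pretreated 0 h arrays were already above the naive ones. The 3 h difference was 0.40 ± 0.11 and did not pass (adjusted p = 0.0979). The 6 h rise was 0.43 ± 0.11 (adjusted p = 0.0456), and it was lost when any 1 of the 4 arrays was left out (adjusted p up to 0.286).

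Stat3 was the member that rose in all 4 comparisons with 0 h. Naive cells had 11.29 and 11.11 at 0 h and 12.50 and 12.30 at 3 h, and 11.94 and 11.97 at 0 h and 12.98 and 12.85 at 6 h. Pretreated cells had 11.38 and 11.37 at 0 h and 12.27 and 12.14 at 3 h, and 11.90 and 12.08 at 0 h and 12.71 and 12.73 at 6 h. In each set the treated arrays were all above all 0 h arrays. The rises were 2.30-fold (log2 change 1.20 ± 0.11, adjusted p = 3.23e-05) and 1.94-fold (0.96 ± 0.11, adjusted p = 9.83e-05) in naive cells at 3 h and 6 h. Pretreated cells showed rises of 1.78-fold (0.83 ± 0.11, adjusted p = 0.00157) and 1.66-fold (0.73 ± 0.11, adjusted p = 0.00234), respectively. All 4 calls held with any 1 array left out, with the adjusted p at most 0.0265.

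Of the members, 2 passed in pretreated cells at 3 h, against 5 in naive cells, and 3 passed at 6 h in both. In pretreated cells at 3 h 1 member was higher (Stat3) and 1 lower (Ifngr1), beside 1.86% of all genes higher and 0.998% lower. There 6 of 9 had an unadjusted p under 0.05, beside 2680 of all 19938 genes. At 6 h 2 members were higher (Stat2 and Stat3) and 1 lower (Ifngr1), beside 2.89% and 2.76% of all genes. There 5 of 9 had an unadjusted p under 0.05, beside 2946 of all 19938 genes. A call in 1 kind of cell and not in the other does not show a different change, and that difference was tested on its own.

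The next question is whether pretreatment left the chain at another level. At 0 h 1 of 9 members, Stat2, was higher in pretreated than in naive cells and none passed as lower, beside 0.808% of all genes higher and 0.155% lower. An unadjusted p under 0.05 was found for 2 of 9 members and 1569 of all 19938 genes. Stat2 was 1.86-fold higher (log2 difference 0.90 ± 0.08, adjusted p = 6.07e-05). The difference was 0.85 (adjusted p = 0.00595) in set 1 and 0.94 (adjusted p = 0.00126) in set 2. All 4 pretreated arrays lay above the naive arrays of their set, and the call held with each of the 8 arrays left out, with adjusted p up to 0.00068. By its level at 0 h, pretreated Stat2 stood between naive 0 h cells and treated cells of either kind, without overlap with either.

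The other 8 members did not pass at 0 h, and the intervals bound how far they could differ. The difference was 0.33 ± 0.13 for Jak2 (95% interval 0.06 to 0.61, adjusted p = 0.433) and 0.10 ± 0.08 for Stat3 (-0.07 to 0.28). For the receptor chains it was -0.03 for Ifngr1 (-0.25 to 0.19), 0.00 for Ifngr2 (-0.22 to 0.22), -0.18 for Ifnar1 (-0.39 to 0.03) and 0.04 for Ifnar2 (-0.14 to 0.22). Jak1 differed by -0.11 (-0.26 to 0.04) and Tyk2 by 0.13 (-0.14 to 0.39). Those intervals hold no difference above 0.61 on the log2 scale in either direction.

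**Figure D3:**
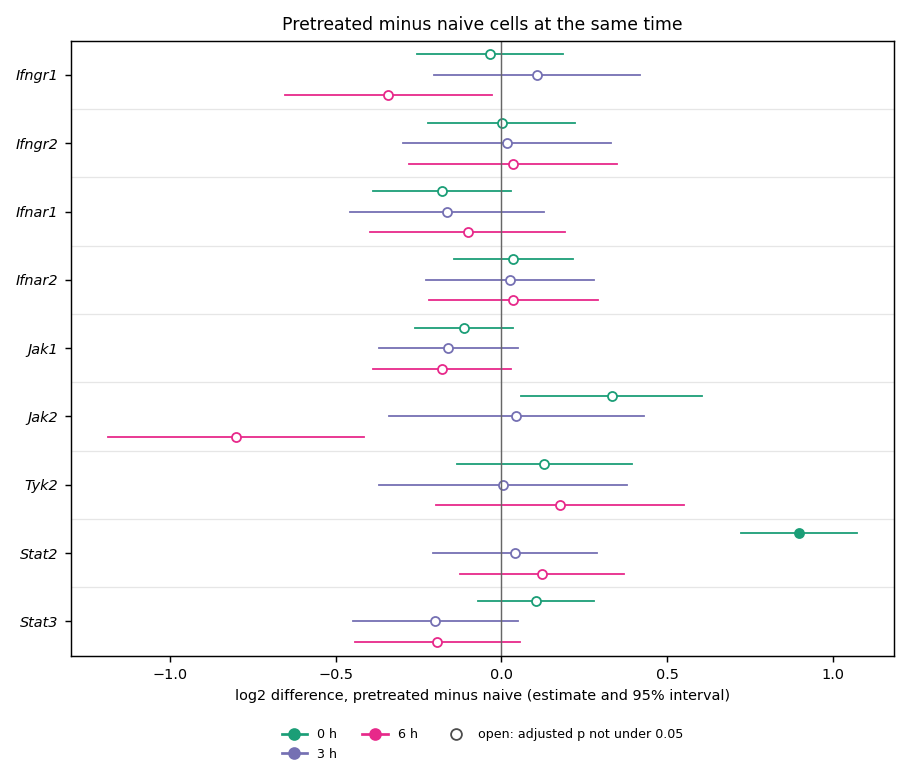
Log2 difference between pretreated and naive cells (x axis, point with 95% interval) of each member at 0, 3 and 6 h, with open points for an adjusted p not under 0.05. Stat2 at 0 h is the 1 filled point, at 0.90, and Jak2 at 6 h lies at -0.80 without passing.

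After treatment no member passed between pretreated and naive cells by limma. At 3 h the differences lay between -0.20 (Stat3) and 0.11 (Ifngr1), and 0.01% of all genes passed as higher and 0.00502% as lower. An unadjusted p under 0.05 was found for 0 of 9 members and 738 of all 19938 genes. Stat2 differed by 0.04 at that time (95% interval -0.21 to 0.29). At 6 h 0.431% of all genes passed as higher and 0.271% as lower. An unadjusted p under 0.05 was then found for 2 of 9 members and 2458 of all 19938 genes. Jak2 was at 11.83 and 11.33 in naive and at 10.78 in both pretreated arrays, with no overlap, a difference of -0.80 ± 0.18 that did not pass (adjusted p = 0.0658). Ifngr1 differed by -0.34 ± 0.14 (adjusted p = 0.343). Without naive 6 h replicate 2 the differences were -1.05 for Jak2 and -0.59 for Ifngr1. Their size depends on which naive array is kept. For Ifngr1 replicate 1 was at 12.44 and replicate 2 at 11.93, beside 11.85 and 11.83 in pretreated cells.

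Whether pretreatment changed the size of the response was tested as the difference of the 2 changes from 0 h. No member passed by limma at 3 h, where 0.0802% of all genes did, or at 6 h, where 0.145% did. At each time 2 of 9 had an unadjusted p under 0.05, beside 330 of all 19938 genes at 3 h and 1819 at 6 h. For Stat2 the pretreated change was smaller by 0.90 ± 0.16 at 3 h (95% interval of the difference -1.25 to -0.55, adjusted p = 0.102). At 6 h the Stat2 difference was -0.73 ± 0.16 (-1.08 to -0.38, adjusted p = 0.147). For Jak2 it was -0.40 ± 0.25 at 3 h (-0.94 to 0.15) and -1.02 ± 0.25 at 6 h (-1.57 to -0.48, adjusted p = 0.179). The latter was -1.27 without naive 6 h replicate 2, the lower of the naive 6 h arrays. The Stat2 difference at 3 h carried the higher 0 h level of pretreated cells, since the 3 h levels differed by 0.04. Stat3 differed by -0.37 ± 0.16 at 3 h and -0.23 ± 0.16 at 6 h, and the 6 receptor and remaining kinase genes by -0.34 to 0.18.

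The 6 h changes were also set against the 3 h changes, a comparison in which time and array set cannot be told apart. No member passed by limma in naive cells, where 1.73% of all genes did, or in pretreated cells, where 0.0201% did. In these 2 and 1 of the 9 had an unadjusted p under 0.05, beside 2652 and 1458 of all 19938 genes. The largest differences were 0.56 for Ifngr1, 0.54 for Jak2 and 0.45 for Ifngr2 in naive cells, and 0.49 for both Ifngr2 and Tyk2 in pretreated cells. The Ifngr2 change was less negative at 6 h than at 3 h in both kinds of cell.

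Around the members, a list of 31 other genes of the pathway held ligands, receptors, STATs, their partners, inhibitors and phosphatases, of which 29 were measured. In naive cells 10 of 29 were higher and 1 lower at 3 h, and 10 higher and 3 lower at 6 h. In pretreated cells 8 were higher and none lower at 3 h, and 7 higher and none lower at 6 h. The medians of the 29 log2 changes were 0.12, 0.09, 0.18 and 0.02 in that order, and the all-gene shares are those given above for each comparison.

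The inhibitors Socs1 and Socs3 made the largest changes from 0 h of this list. Not all listed inhibitors rose. Pias3 was lower in naive cells at 6 h (log2 change -0.89 ± 0.20, adjusted p = 0.00661). Its change was -0.73 without naive 6 h replicate 1. Socs2, Pias1, Pias2 and Pias4 passed in no change from 0 h. Socs1, whose protein binds JAK kinases and blocks them, rose 19.1-fold in naive cells at 3 h (log2 change 4.25 ± 0.15, adjusted p = 8.97e-09) and 11.8-fold at 6 h, and 9.87-fold and 9.11-fold in pretreated cells. On the log2 scale Socs3, the inhibitor of signalling by the interleukin-6 receptor, rose by 4.04 ± 0.21 and 3.26 in naive and by 2.86 and 2.04 in pretreated cells. At 6 h Socs3 was lower in pretreated than in naive cells by 1.39 on the log2 scale (log2 difference -1.39 ± 0.21, adjusted p = 0.015), the 1 gene of the list to pass there, and that call was lost with 3 of the 4 arrays left out in turn (adjusted p up to 0.199). Cish, another SOCS-family inhibitor, rose by 2.82 ± 0.17 at 3 h and 1.44 at 6 h in naive cells, and the difference of these changes, -1.38 ± 0.24, passed (adjusted p = 0.0152, up to 0.085 with an array left out). Ptpn2, a phosphatase of JAK1 and the STATs, rose by 1.71 ± 0.18 in naive cells at 6 h and by 0.78 in pretreated cells, the latter lost with 3 of 4 arrays left out (adjusted p up to 0.206, and 0.48 without pretreated 0 h replicate 1). Usp18, which dampens the type I receptor through IFNAR2, rose by 1.85 ± 0.34 at 3 h and 1.51 at 6 h in naive cells, each lost with 2 of 4 arrays left out (adjusted p up to 0.0786).

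Among the other STAT genes, Stat5a and Stat5b, which signal for growth factors such as GM-CSF, rose at 3 h. The log2 changes were 0.86 ± 0.12 and 0.89 ± 0.10 in naive cells (adjusted p = 0.000747 and 0.000179) and 0.55 and 0.70 in pretreated cells (adjusted p = 0.0307 and 0.00272). The Stat5a call in pretreated cells was lost with any 1 of its 4 arrays left out (adjusted p up to 0.273). Of the partners and targets, Irf1, a transcription factor gene induced through STATs, rose in naive cells by 2.93 ± 0.15 at 3 h and 2.26 at 6 h, and in pretreated cells by 1.28 and 1.43. Its 3 h change was smaller in pretreated cells by 1.65 ± 0.21 (difference -1.65, adjusted p = 0.00822, up to 0.0639 with an array left out), the 1 listed gene to pass in that test. It did not pass with array set as an additive term (-1.26, adjusted p = 0.244) or with set 2 fitted alone (adjusted p = 0.0652). Nmi, a STAT-binding protein, rose by 1.53 ± 0.18 in naive cells at 6 h. Irf9, the DNA-binding partner of STAT2, did not pass, with log2 differences of 0.12 and -0.17 at 3 h and 6 h in naive cells and of -0.10 and -0.17 in pretreated ones. Il10ra, the ligand-binding chain of the interleukin-10 receptor, rose by 1.31 ± 0.17 in naive and 1.04 in pretreated cells at 3 h. The pretreated change was 0.90 without pretreated 0 h replicate 4. With no array set term the 3 h changes were 0.89 and 0.71 and did not pass (adjusted p = 0.123 and 0.301). Il6ra, the interleukin-6 receptor, fell by 1.39 on the log2 scale in naive cells at 6 h (log2 change -1.39 ± 0.26, adjusted p = 0.00244). Its 2 naive 6 h arrays lay far apart, at 10.46 and 11.49, and without replicate 1 the change was -0.88 (adjusted p = 0.0173).

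At 0 h 3 of the 29 listed genes were higher in pretreated cells and none lower, beside 0.808% of all genes higher and 0.155% lower. There 7 of the 29 had an unadjusted p under 0.05, beside 1569 of all 19938 genes. Irf1 was 2.16-fold higher (log2 difference 1.11 ± 0.10, adjusted p = 8.9e-05), and this held with each of the 8 arrays left out. Within the sets Irf1 was 1.65-fold higher in set 1, where it did not pass (adjusted p = 0.0831), and 2.83-fold higher in set 2 (adjusted p = 0.000237). With the mean of its features in place of the brightest the log2 difference over both sets was 0.68 (adjusted p = 0.00317). Nmi (0.66 ± 0.13, adjusted p = 0.0248) and Socs1 (0.54 ± 0.11, adjusted p = 0.0279) were each lost with 6 of the 8 arrays left out in turn. Between pretreated and naive cells at 3 h none of the 29 passed by limma (3 at an unadjusted p under 0.05, beside 738 of all 19938 genes). None passed for the difference of 6 h responses (7 at an unadjusted p under 0.05, beside 1819 of all genes).

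**Figure D4:**
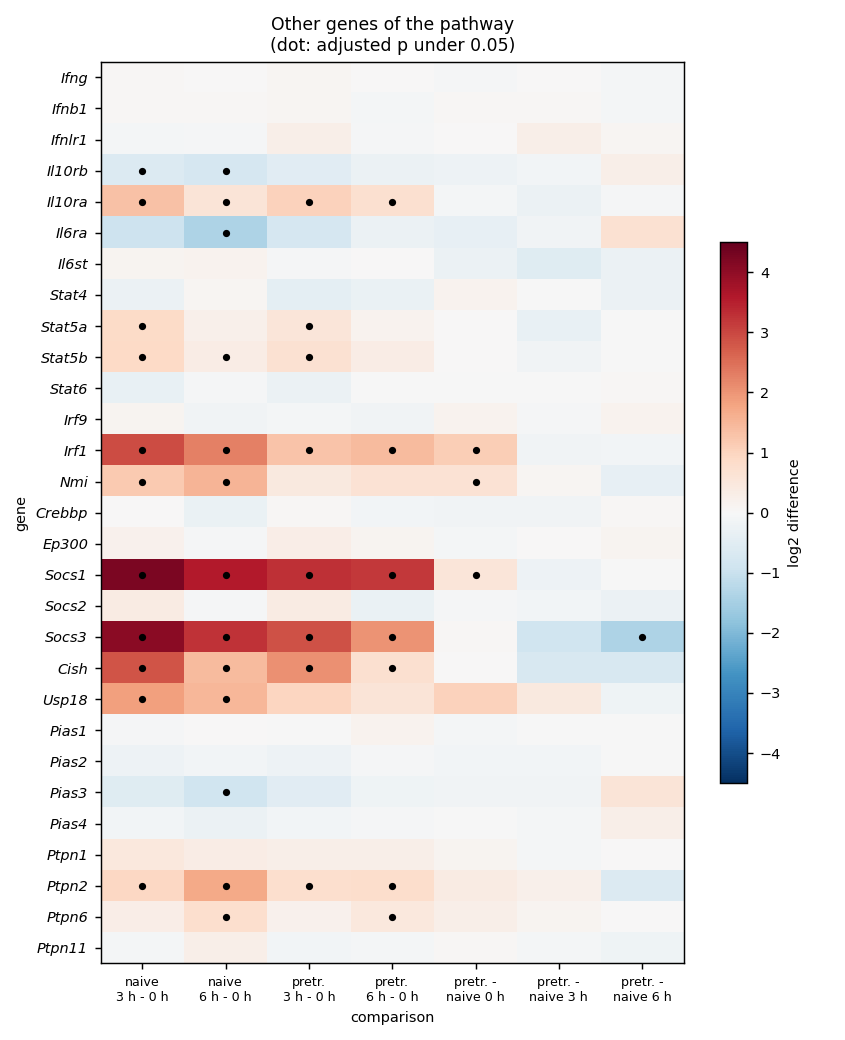
Log2 changes from 0 h and log2 differences between pretreated and naive cells (colour scale) for the 29 measured pathway genes (y axis) in each comparison (x axis), with a dot where the adjusted p was under 0.05. Socs1, Socs3 and Irf1 are the most strongly coloured, and the pretreated against naive columns hold few dots.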

How the data were processed

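Values in the deposited table are log2 intensities made by the authors from 1-colour Affymetrix mouse gene arrays with biotin-labelled total RNA, per the labels. For background correction, normalization and genome build, nothing is given in the sources used. Groups came from the sample titles and array sets from the numbering in them. The sets' medians differ, so the sets may have been normalized separately. The number of arrays, 2 per group and set, limits the precision.

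Of 35557 features 21789 carry 1 symbol in the platform annotation, which can be old, and 21698 of these matched RefSeq by gene identifier. Features with several symbols were not named. For 999 genes with more than 1 feature the brightest was used, leaving 19938 genes. No 2 arrays held identical values.

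limma 3.58.1 (R 4.3.3) fitted 8 means, 1 for each group in each set (8 residual and 4.26 prior degrees of freedom), after a test on simulated data. Intervals are at 95%. The members, the pathway and marker lists and the tests were chosen with earlier results of these data known. All members are described. The pathway rule named, per comparison, up to 6 passing genes with the largest absolute change. Il10rb, Il6ra, Irf9, Pias1, Pias2, Pias3, Pias4, Socs2, Stat5a, Stat5b and the 6 h value of Cish were added after their values were seen. Likeness used the 3 genes with the highest Pearson r. Promoters and motifs used Python 3.11.15, pandas 2.3.3 and numpy 2.4.6, and figures matplotlib 3.10.9. Alternatives are in the closing section. Some genes of the chain are not reported here.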

Additional observations from a re-analysis of the deposited data

How the results depend on the processing

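All alternatives were run, and none reversed a member's or listed gene's passing change. Most member values counted next had not passed to begin with, so these counts do not show how stable the passing calls were. Calls lost with an array left out were Ifngr1 at 3 h and 6 h and Stat2 at 6 h in pretreated cells. Ifngr2 at 3 h in naive cells was also lost. Of 882 member values under alternatives other than leaving out an array, 840 kept their side of the threshold, 31 passed newly and 11 were lost. Of 576 with an array left out, 556 kept it, 6 passed newly and 14 were lost. With no array set term the counts of members past the threshold were 3 at 3 h in naive cells, 1 at 6 h in pretreated cells and 2 for the 6 h against 3 h changes of naive cells, and the median of all genes moved to between -0.18 and 0.34. Lost were Jak2 and Stat3 at 3 h in naive cells (adjusted p = 0.294 and 0.0998) and Ifngr1 and Stat2 at 6 h in pretreated cells. At 3 h in pretreated cells Stat3 was lost (0.401) and Ifngr2 added. The counts of all genes were 797, 846 and 1288 in the order of the member counts, against 1088, 1126 and 345. With array set as an additive term the member counts were 6 at 3 h (Ifnar1 added) and 5 at 6 h in naive cells (Ifngr1 and Tyk2 added), 5 at 3 h (Ifngr2, Jak2 and Stat2 added) and 4 at 6 h in pretreated cells (Tyk2 added), 1 between pretreated and naive cells at 6 h, 1 for the difference of 3 h responses and 2 for that of 6 h responses. All-gene counts in that order were 1410, 4340, 923, 1395, 273, 10 and 245. Without the additive term they were 1088, 3653, 569, 1126, 140, 16 and 29. The trended and robust variance gave 1 for the difference of 3 h responses, where Stat2 passed (adjusted p = 0.0367) and all genes gave 20 against 16. Quantile normalization over all arrays gave 4 at 3 h in pretreated cells (all genes 615 against 569) and 1 between pretreated and naive cells at 6 h (174 against 140). With set 1 alone, Ifngr1 (adjusted p = 0.0594) and Stat2 (0.0574) were lost at 6 h in pretreated cells (all genes 933 against 1126). Tyk2 was added at 6 h in both kinds of cell (all genes in naive cells 3455 against 3653). With set 2 alone, Ifngr2 (0.136) was lost at 3 h in naive cells (all genes 880 against 1088). Jak2 (0.0486) was added at 3 h in pretreated cells (all genes 413 against 569). The cause of these moves was not tested.

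The titles number arrays by position, and no label pairs them. Positions 1 to 4 against 5 to 8 of a set, as a replicate block, were tried. Their differences correlated between groups at 0.0821 to 0.662 over 12 pairs, so the pairing was not established. With this block 6 members passed at 3 h and 4 at 6 h in naive cells, 4 at 3 h and 4 at 6 h in pretreated cells and 1, Jak2, between pretreated and naive cells at 6 h. Ifnar1 was added at 3 h (adjusted p = 0.0117 in naive and 0.0308 in pretreated cells), Ifngr2 at 3 h in pretreated cells (0.0197) and Tyk2 at 6 h (0.00752 in naive and 0.0054 in pretreated cells). The block raised the counts of all genes too, in naive cells to 1925 from 1088 at 3 h and to 4832 from 3653 at 6 h. In pretreated cells they were 1272 against 569 at 3 h and 1895 against 1126 at 6 h. Between pretreated and naive cells at 6 h 845 genes passed, against 140. With an array left out, the member counts ranged from 4 to 5 at 3 h and 3 to 4 at 6 h in naive cells, were 1 at 3 h and 1 to 2 at 6 h in pretreated cells, and ranged from 0 to 2 between pretreated and naive cells at 6 h. They ranged from 0 to 1 for the difference of 6 h responses and for the 6 h against 3 h changes of naive cells. Over the whole 300-base promoter entry 2 members held a GAS match, against 1 in the window before the start. Signals of all members were well above the dimmest values, and 2 arrays per group limit what could be detected.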

Other observations

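The spread of the members over the 16 arrays, with both array sets centred separately, separated them into mobile and steady genes. The SD of Jak2 was 0.59, larger than that of 95.8% of all genes, that of Stat2 0.54 (94.9%), of Stat3 0.49 (93.5%) and of Ifngr1 0.39 (89.7%). Ifnar2 had an SD of 0.08 and Jak1 of 0.09, larger than 2.33% and 6.08% of genes. Tyk2, Ifngr2 and Ifnar1 lay between these, at 0.26, 0.24 and 0.21.

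The genes whose values over these 16 centred arrays were most like each member are given as a description, since the arrays share groups and sets. Stat2 was closest to Oasl2 (Pearson r = 0.989), Tap1 (0.988) and Gm4951 (0.984). For Stat3 they were Nod1 (0.993), Crem (0.987) and Golga3 (0.985), and for Jak2 Snx10 (0.977), Zfp800 (0.975) and Nod2 (0.975). Ifngr1 was closest to Sephs2 (0.963), Jmjd1c (0.958) and Mitf (0.946), and Ifngr2 to Arhgef7 (0.958), Ehbp1l1 (0.946) and Tmem189 (0.945). The nearest genes were Ckap4 (0.935), Mlec (0.934) and Ctdspl (0.915) for Ifnar1, and Gtpbp2 (0.967), Idnk (0.927) and Sharpin (0.914) for Tyk2. For the steady genes r was lower, with Mpeg1 (0.895), Olfr820 (0.867) and Psap (0.824) for Ifnar2 and Erbin (0.864), Taok1 (0.857) and Pde2a (0.855) for Jak1. Olfr820 was dim, with a mean log2 intensity of 3.74. Among the members themselves the highest r was 0.913 for Jak2 and Stat3, and the lowest -0.872 for Ifngr1 and Stat3.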
